A study of Homo sapiens with 18 samples.

Results

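The comparison described here sets MCF10A cells that carry Snail against the cells labelled as MCF10A carrying Twist. It holds the 3 arrays titled for MCF10A with Snail and the 3 titled for MCF10A with Twist, 6 of the 18 arrays of the series, chosen by their titles. One value was taken per gene, which left 18417 genes. A difference is the mean log2 value of the Snail arrays minus that of the labelled Twist arrays. A positive value means higher with Snail, and 1 log2 unit is 2-fold. Genes that rose, fell, or were higher or lower with Snail did so relative to the labelled Twist arrays, unless another group is named. These words do not say that Snail changed a gene.

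MCF10A is a spontaneously immortalised, non-tumorigenic human mammary epithelial line. HMLE, the other line of the series, is named HMLEC in the labels and is made of mammary epithelial cells immortalised with telomerase and SV40 T antigens. Each line carried Snail, Twist or an empty vector, giving 6 groups of 3 arrays, and all cells were grown in the same serum-containing medium. Per the design text the Snail and Twist cells were selected stable clones, and how many clones stand behind a group is not stated. Nothing in the labels tells if the 3 replicates of a group came from independent cultures, and p-values therefore measure only the spread between these arrays, which may be technical.

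Snail (gene SNAI1) is a zinc finger repressor and Twist (gene TWIST1) a basic helix-loop-helix factor, and both bind E-box sequences and drive epithelial-mesenchymal transition (EMT). In EMT a sheet of polarised cells loses E-cadherin, desmosomes and keratins and gains vimentin, N-cadherin, interstitial matrix and motility. Mammary basal cells normally combine epithelial junctions with basal keratins and a laminin-rich basement membrane. In bulk RNA of this kind, fewer cells of a type and less RNA per cell cannot be told apart.

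The 6 arrays had medians between 7.71 and 7.792 on the log2 scale, and replicates correlated at 0.994 to 0.997 across probe sets. The number of arrays limits the precision. Levels are log2 values per array and can be compared between arrays for 1 gene, not between genes. Differences are given with their SE and with an adjusted p from limma, Benjamini-Hochberg adjusted over all genes.

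SNAI1 followed the label. It stood at 12.50, 12.41 and 12.54 on the Snail arrays, against 8.33, 8.31 and 8.11 on the labelled Twist arrays, a difference of 4.24 ± 0.09 (adjusted p = 3.92e-16). TWIST1 stood at 10.36, 10.22 and 10.33 on the Snail arrays, against 11.01, 11 and 10.96 on the labelled Twist arrays, a difference of -0.69 ± 0.07 (adjusted p = 1.68e-07). Neither gene's arrays overlapped between the groups. The SNAI1 contrast was 18.9-fold and the TWIST1 contrast 1.61-fold.

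The labelled Twist arrays went against their line label at several genes. MTAP, a methionine salvage enzyme beside the CDKN2A and CDKN2B cell cycle inhibitor genes on chromosome 9, belongs to a region that MCF10A cells are known to have lost. It stood at 6.19, 5.95 and 5.92 on the Snail arrays, against 10.84, 10.79 and 10.78 on the labelled Twist arrays, a difference of -4.78 ± 0.12 (adjusted p = 6.68e-15). The MCF10A vector arrays had 6.39, 5.87 and 5.69, and the 9 HMLE arrays lay between 9.81 and 10.31. MTAP was therefore low on the Snail and vector arrays and high on the labelled Twist arrays, above every HMLE array. CDKN2A had 8.29, 8.14 and 8.13 on the Snail arrays, against 10.66, 10.65 and 10.70 on the labelled Twist arrays, and differed by -2.49 ± 0.08 (adjusted p = 1.42e-13). CDKN2B had 7.46, 8.22 and 7.60, against 10.56, 10.41 and 10.37, and differed by -2.69 ± 0.15 (adjusted p = 1.72e-10). Both inhibitors were lower on all 3 Snail arrays, with no overlap.

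Genes that separate the lines place the groups further. There were 128 genes whose 9 HMLE arrays all lay at least 2 log2 units above, or all below, the 3 MCF10A vector arrays. Beyond the choice of probe set, neither group of the comparison was used to choose these genes. All 3 Snail arrays lay on the HMLE side of the midpoint for 34 of them (26.6%, exact 95% interval 19.1 to 35.1) and on the MCF10A side for 87. All 3 labelled Twist arrays lay on the HMLE side for 115 of them (89.8%, exact 95% interval 83.3 to 94.5) and on the MCF10A side for 12. The Snail share on the HMLE side depended on direction. It was 14.8% of the 54 genes higher in HMLE and 35.1% of the 74 higher in MCF10A vector. For labelled Twist these shares were 87.0% and 91.9%. With 0 for the MCF10A vector mean and 1 for the mean of the HMLE arrays, the median position was 0.19 for the Snail arrays and 0.99 for the labelled Twist arrays. The intervals cover counting error over genes only, and the genes are not independent. Of these 128 genes, SLFN11, a replication stress factor, stood at 5.70, 5.64 and 5.78 on the Snail arrays, against 11.44, 11.40 and 11.43 on the labelled Twist arrays (difference -5.72 ± 0.10, adjusted p = 4.96e-17). EPB41L4A, a FERM domain protein, stood at 10.49, 10.40 and 10.26 on the Snail arrays, against 5.42, 5.31 and 5.35 on the labelled Twist arrays (difference 5.02 ± 0.08, adjusted p = 1.27e-17). Both genes showed no overlap, and in each the Snail arrays lay near the MCF10A vector mean. Several genes named below in other lists were also among the 128, such as CLDN7, MUC1, LAMA1, NID2, THY1, GREM1, TFPI2, FGF5 and ERAP2.

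**Figure D1:**
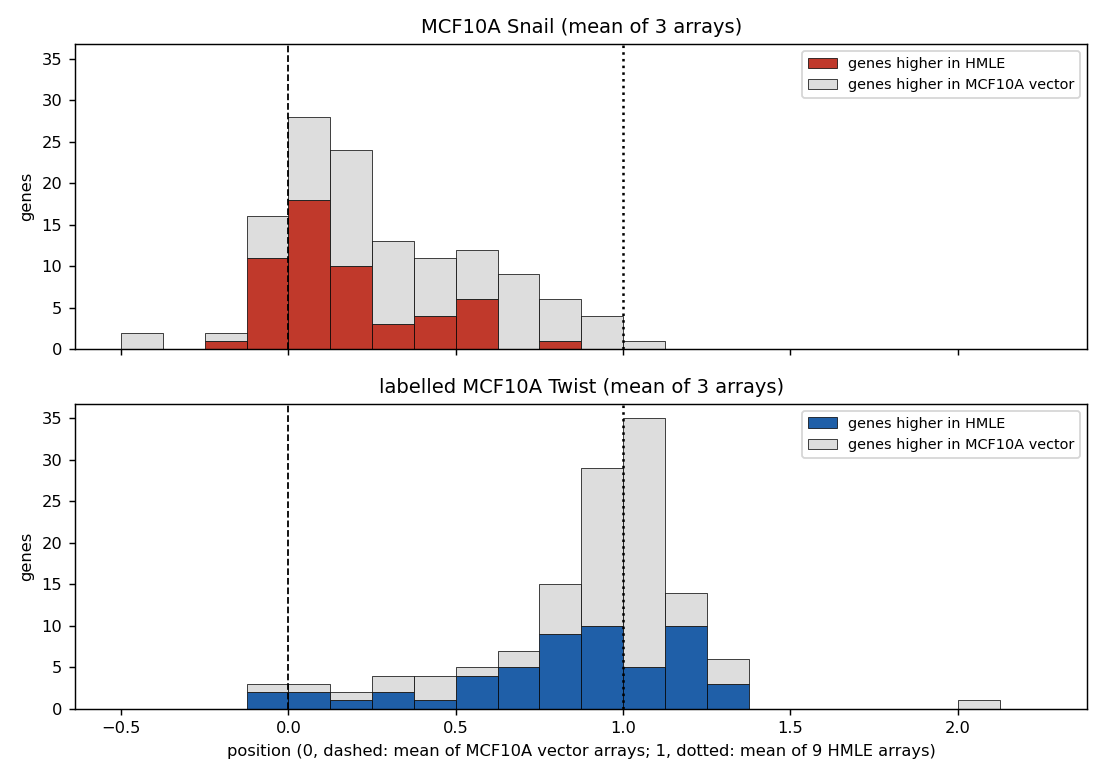
Histograms of 128 line-separating genes by the position of the group mean between the MCF10A vector mean (0, dashed line) and the mean of 9 HMLE arrays (1, dotted line), for MCF10A Snail above and labelled MCF10A Twist below; bars are stacked by direction of the line difference, in numbers of genes. The median position was 0.19 for Snail and 0.99 for labelled Twist.

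TERT was among the 12 genes with all 3 labelled Twist arrays on the MCF10A side, and it is named here after its values were seen. It encodes the telomerase catalytic subunit used to immortalise HMLE cells. It stood at 9.32, 9.24 and 9.26 on the Snail arrays, against 8.87, 8.98 and 9.16 on the labelled Twist arrays, a difference of 0.27 ± 0.08 (adjusted p = 0.0103). The MCF10A vector arrays had 8.44, 8.77 and 8.63. The lowest HMLE array with Snail or Twist was at 12.47, and the HMLE vector arrays had 11.03, 10.97 and 10.93. The labelled Twist arrays thus had high levels of the 9p21 genes that were low on MCF10A vector arrays, and TERT levels below those of every HMLE array. For these arrays line and insert cannot be told apart, and every difference below carries both. The TERT call was lost without labelled Twist replicate 1 (adjusted p = 0.0589).

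At an adjusted p under 0.05 and at least 2-fold, 1599 genes were called, 8.68% of those tested. With Snail, 818 were higher (4.44%) and 781 lower (4.24%), and in all 1599 the 3 Snail and 3 labelled Twist arrays did not overlap. By adjusted p alone 9119 genes passed, 49.5% of the 18417, with 22.5% higher and 27.0% lower with Snail. This is the background against which the list counts below, which use adjusted p alone, are to be read. At least 16-fold apart were 77 genes (0.418%), 55 higher (0.299%) and 22 lower (0.119%) with Snail. The median over all genes was -0.06.

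MAL2, IL18, KRT5 and NID1 were among the genes with the largest differences. MAL2, a membrane protein of apical transport in polarised cells, stood at 13.98, 14.03 and 14.09 on the Snail arrays, against 6.31, 6.09 and 6.69 on the labelled Twist arrays. This was 203-fold, the largest of all genes (difference 7.67 ± 0.11, adjusted p = 7.11e-18). KRT5, the basal keratin, stood at 14.15, 14.20 and 14.07 on the Snail arrays, against 7.71, 7.50 and 7.93 on the labelled Twist arrays (difference 6.43 ± 0.08, adjusted p = 3.41e-18). Neither passed the test of Snail against MCF10A vector: MAL2 differed from MCF10A vector by -0.15 ± 0.11 (adjusted p = 0.389) and KRT5 by 0.05 ± 0.08 (adjusted p = 0.733). IL18, an interleukin 1 family cytokine stored by epithelium, stood at 11.83, 11.90 and 11.94 on the Snail arrays, against 5.53, 5.31 and 5.15 on the labelled Twist arrays (difference 6.56 ± 0.10, adjusted p = 1.27e-17). NID1, the basement membrane linker nidogen 1, ran the other way, with 5.98, 6.35 and 6.09 on the Snail arrays, against 12.52, 12.50 and 12.42 on the labelled Twist arrays (difference -6.34 ± 0.11, adjusted p = 2.85e-17). At each of these 4 genes the arrays of the groups lay far apart.

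**Figure D2:**
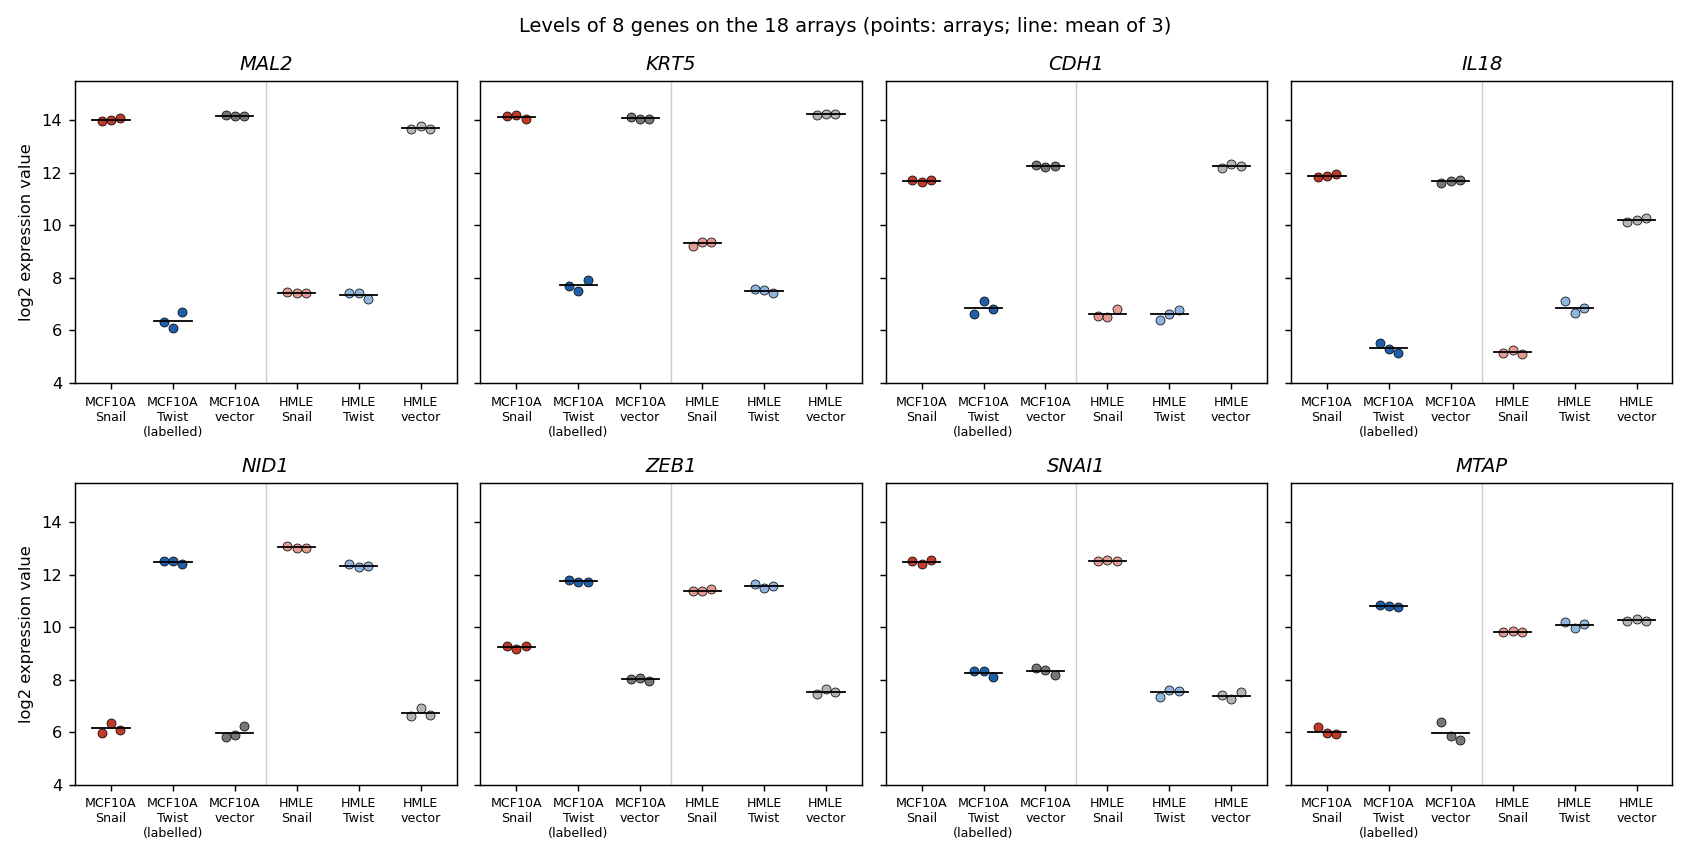
Log2 expression values of 8 genes on all 18 arrays, by group, with MCF10A Snail at the left of each panel and labelled MCF10A Twist next to it; points are arrays and lines the mean of 3. MAL2, KRT5, CDH1 and IL18 are high with Snail and vector in MCF10A and low on the labelled Twist arrays, while NID1, ZEB1 and MTAP run the other way.

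The promoters of DSP, KRT5 and NID1 are shown because these genes lie at opposite ends of the comparison and Snail is known to bind the E-box CAGGTG. Each window is the 250 bases before the gene's start, from RefSeq on GRCh38.p14, read 5′ to 3′ on the gene's strand, with the motif in capitals. DSP lies on the plus strand (chr6:7541421-7541670), and KRT5 (chr12:52520395-52520644) and NID1 (chr1:236065091-236065340) on the minus strand.
DSP: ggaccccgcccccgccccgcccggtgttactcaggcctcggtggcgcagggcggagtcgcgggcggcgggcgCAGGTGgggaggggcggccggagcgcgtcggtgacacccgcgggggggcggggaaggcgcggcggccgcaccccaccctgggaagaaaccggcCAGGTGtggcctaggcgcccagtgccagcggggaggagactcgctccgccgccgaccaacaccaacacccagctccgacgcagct
KRT5: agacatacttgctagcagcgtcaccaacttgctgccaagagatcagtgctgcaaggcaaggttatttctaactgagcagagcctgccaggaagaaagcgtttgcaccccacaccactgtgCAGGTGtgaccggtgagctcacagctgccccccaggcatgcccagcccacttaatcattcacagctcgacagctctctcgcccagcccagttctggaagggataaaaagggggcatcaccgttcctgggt
NID1: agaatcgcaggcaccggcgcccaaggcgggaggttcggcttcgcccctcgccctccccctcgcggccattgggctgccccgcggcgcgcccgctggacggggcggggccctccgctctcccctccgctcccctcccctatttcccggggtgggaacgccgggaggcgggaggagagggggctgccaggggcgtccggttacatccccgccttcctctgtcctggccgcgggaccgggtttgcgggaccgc
The motif was searched on both strands as CAGGTG and CACCTG, which are reverse complements of each other. The DSP window held it at positions -178 and -85 before the start, the KRT5 window at -130, and the NID1 window nowhere. These 3 windows do not stand for a split: of the 25 windows matched to the core genes and the genes of largest change, 5 held the motif, and 3 of those 5 (EDIL3, ZEB1 and ZNF717) belong to genes lower with Snail. The windows of DSC3, EHF, EPGN, IL1A, FLRT3 and VSNL1, all higher with Snail, did not hold it. It occurred in 26.6% of the 638 windows matched to genes higher with Snail and in 14.4% of the 592 matched to genes lower with Snail. The share was 16.8% of the 14239 windows matched to all measured genes, and 17.5% of 27305 windows of distinct symbols. These are matches of letters in short windows, given with no test, and binding was not measured.

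The 15 largest rises held junction, adhesion and secreted epithelial genes. DSP, the desmosomal plaque protein desmoplakin, stood at 12.47, 12.51 and 12.44 on the Snail arrays, against 6.23, 6.51 and 6.23 on the labelled Twist arrays (difference 6.15 ± 0.08, adjusted p = 3.41e-18). SLPI, a secreted protease inhibitor, followed at 5.83 ± 0.09 and DSC3, a desmosomal cadherin, at 5.77 ± 0.13. TNS4, a focal adhesion protein, was higher by 5.68 ± 0.08, MPZL2, an epithelial adhesion molecule, by 5.57 ± 0.20, and EPGN, an EGF receptor ligand, by 5.49 ± 0.09. EHF, an epithelial ETS factor, was higher by 5.35 ± 0.12, ITGB4, the hemidesmosomal integrin chain, by 5.34 ± 0.07 and IL1A, a cytokine, by 5.30 ± 0.10. FLRT3, MFAP5 and VSNL1 completed the 15 with 5.26 ± 0.12, 5.25 ± 0.07 and 5.17 ± 0.13. For all 15 the Snail arrays lay above every labelled Twist array, which was a condition of their choice and held at every called gene. MFAP5, a microfibril protein, was also above MCF10A vector with Snail (1.92 ± 0.07, adjusted p = 4.95e-12), whereas VSNL1, a neuronal calcium sensor, was below vector with Snail (-1.41 ± 0.13, adjusted p = 6.79e-07).

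The 15 largest falls opened with SLC14A1, a urea transporter. It stood at 6.16, 5.83 and 5.81 on the Snail arrays, against 13.16, 13.15 and 13.13 on the labelled Twist arrays, 148-fold (difference -7.21 ± 0.16, adjusted p = 7.85e-16). EDIL3, an integrin-binding matrix protein, stood at 5.02, 5.54 and 5.19 on the Snail arrays, against 11.43, 11.36 and 11.44 on the labelled Twist arrays (difference -6.16 ± 0.18, adjusted p = 2.16e-14). ENPP2, the secreted enzyme autotaxin, stood at 7.58, 7.16 and 7.44 on the Snail arrays, against 13.19, 13.17 and 13.10 on the labelled Twist arrays (difference -5.76 ± 0.09, adjusted p = 1.19e-17). The labelled Twist arrays were high and close together at each of these genes, and the Snail arrays low. THY1, a fibroblast surface glycoprotein, differed by -5.50 ± 0.10, and the zinc finger gene ZNF717 by -5.50 ± 0.06. TFPI2, a serine protease inhibitor of the matrix, differed by -5.12 ± 0.13 and CCL2, a monocyte chemokine, by -5.01 ± 0.13. CEP15, ZNF730, TBX18, FGF5 and PCOLCE differed by -4.72 ± 0.11, -4.65 ± 0.17, -4.56 ± 0.12, -4.54 ± 0.09 and -4.50 ± 0.07. With NID1, SLFN11 and MTAP these made up the 15, for which no overlap between groups was again a condition.

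**Figure D3:**
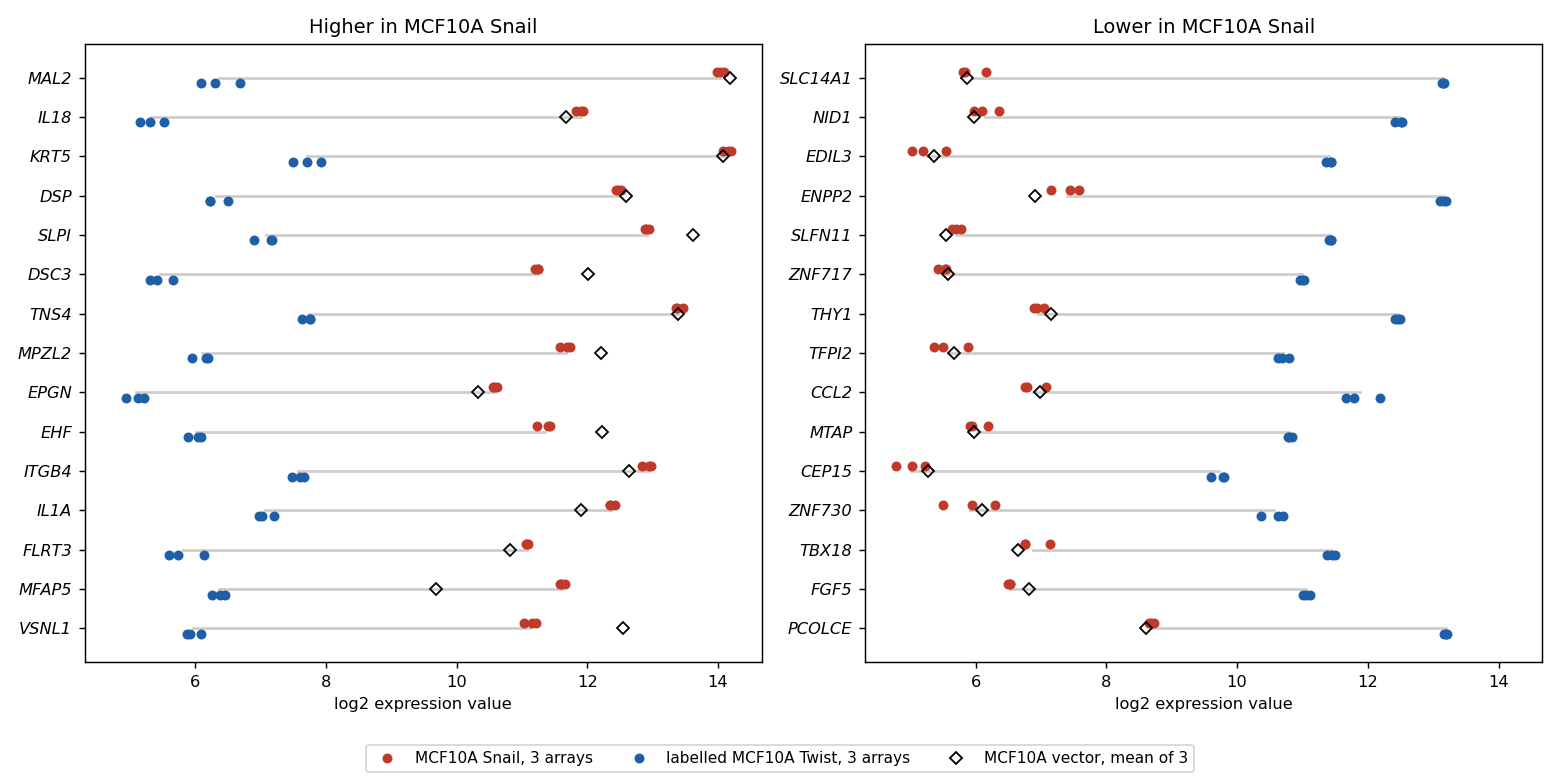
Log2 expression values of the 15 genes with the largest rises (left) and falls (right) with MCF10A Snail; red points are the 3 Snail arrays, blue points the 3 labelled Twist arrays and diamonds the MCF10A vector mean. Most diamonds lie beside the red points, as for SLC14A1 at 5.87.

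Adherens and tight junction and polarity genes were mostly higher with Snail: 13 of 21 measured rose and 4 fell, with a median difference of 0.35. CDH1 (E-cadherin) stood at 11.72, 11.66 and 11.72 on the Snail arrays, against 6.61, 7.11 and 6.83 on the labelled Twist arrays, 28.8-fold (difference 4.85 ± 0.11, adjusted p = 1.17e-15). CDH3 (P-cadherin of basal cells) stood at 12.60, 12.53 and 12.52, against 7.90, 7.68 and 7.78 (difference 4.76 ± 0.07, adjusted p = 1.19e-17). CLDN7, a tight junction claudin, stood at 12.15, 12.10 and 12.11, against 8.0, 8.12 and 7.84 (difference 4.13 ± 0.09, adjusted p = 3.16e-16). All 3 genes were high on every Snail array. CLDN7 is also a line-separating gene, at no more than 9.63 on any HMLE array and at a mean of 13.02 on MCF10A vector. PATJ, a polarity scaffold, rose by 2.41 ± 0.08 and CLDN1 by 2.26 ± 0.08. NECTIN2, an adhesion molecule, was the largest fall of the list at -0.76 ± 0.06 (adjusted p = 1.16e-08), and the polarity genes CRB3 (0.02 ± 0.14, adjusted p = 0.939) and PARD6B (0.10 ± 0.13, adjusted p = 0.555) did not pass the test. CDH1 was itself lower with Snail than with MCF10A vector (-0.57 ± 0.11, adjusted p = 0.00112), and the labelled Twist arrays lay below vector too (-5.42 ± 0.11, adjusted p = 2.13e-16).

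Desmosomes, which rivet epithelial cells to each other, and hemidesmosomes, which anchor basal cells to the basement membrane, showed wide differences. Of 17 measured genes 13 rose with Snail and 2 fell, with a median of 2.47, and 11 of the rises were at least 2-fold. DSG3, a desmosomal cadherin, stood at 12.17, 12.11 and 12.08 on the Snail arrays, against 7.19, 7.13 and 6.83 on the labelled Twist arrays (difference 5.07 ± 0.11, adjusted p = 4.61e-16). DSC2 rose by 4.47 ± 0.09, JUP (plakoglobin, shared with adherens junctions) by 4.02 ± 0.07 and PKP2 (plakophilin 2) by 3.33 ± 0.08. ITGB4 stood at 12.97, 12.95 and 12.83 on the Snail arrays, against 7.48, 7.60 and 7.67 on the labelled Twist arrays (adjusted p = 4.6e-18), and its partner ITGA6 rose by 2.54 ± 0.05. PKP1 (plakophilin 1) went against the list, with 7.55, 8.03 and 7.83 on the Snail arrays, against 9.40, 9.37 and 9.32 on the labelled Twist arrays (difference -1.56 ± 0.09, adjusted p = 3.54e-10). The tetraspanin CD151 was also lower (-0.24 ± 0.05, adjusted p = 0.000397).

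All 4 measured basal keratins were higher with Snail than on the labelled Twist arrays, with a median difference of 3.65. KRT14, the partner of KRT5, stood at 13.22, 13.30 and 13.26 on the Snail arrays, against 8.65, 8.78 and 8.53 on the labelled Twist arrays (difference 4.60 ± 0.09, adjusted p = 9.32e-17). KRT15 rose by 2.70 ± 0.12 and KRT16, a stress keratin, by 2.02 ± 0.12. KRT15 was the member with Snail levels furthest from vector, at 9.34, 9.14 and 9.03 on the Snail arrays and 12.64 as the mean of MCF10A vector. Among 17 luminal keratins and mammary luminal genes, 7 rose and 1 fell, and the median was -0.02. The simple keratins KRT8, KRT7 and KRT18 rose by 2.24 ± 0.10, 2.02 ± 0.08 and 1.95 ± 0.10. MUC1, an apical mucin, stood at 12.45, 12.52 and 12.31 on the Snail arrays, against 8.65, 8.45 and 8.42 on the labelled Twist arrays (difference 3.92 ± 0.08, adjusted p = 2.4e-16). GATA3, a luminal transcription factor, rose by 1.20 ± 0.07, and the trefoil peptides TFF1 (-0.02 ± 0.10, adjusted p = 0.866) and TFF3 (0.02 ± 0.08, adjusted p = 0.887) had overlapping arrays. ELF5, an alveolar factor, differed by -0.30 ± 0.12 (adjusted p = 0.0479), a call that did not hold with the replicate number as a block (adjusted p = 0.0553). The ELF5 call was also lost without Snail replicate 1 or 3 (adjusted p = 0.117 and 0.13) and without labelled Twist replicate 2 or 3 (adjusted p = 0.194 and 0.0613). Centring each array on its median lost it too (adjusted p = 0.0856).

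Epithelial transcription and splicing regulators split. Of 15 measured, 8 rose with Snail and 3 fell, with a median of 0.43. EHF stood at 11.43, 11.40 and 11.23 on the Snail arrays, against 5.89, 6.04 and 6.09 on the labelled Twist arrays (adjusted p = 1.17e-15), and ESRP2, an epithelial splicing regulator, rose by 2.63 ± 0.11. GRHL3, a grainyhead factor of barrier formation, rose by 2.62 ± 0.10 and KLF5, a basal cell factor, by 2.43 ± 0.06. Other members of the same families went the other way: KLF4 had 7.66, 7.59 and 7.65 on the Snail arrays, against 8.90, 8.74 and 8.72 on the labelled Twist arrays (difference -1.15 ± 0.08, adjusted p = 3.05e-09), and GRHL1 differed by -1.11 ± 0.12. GRHL2 was near 6 on all 6 arrays and on MCF10A vector (mean 6.10), with a difference of -0.20 ± 0.06 (adjusted p = 0.0103). The GRHL2 call was lost without Snail replicate 3 (adjusted p = 0.0699) and with limma's trended, robust variance (adjusted p = 0.0709). TFAP2C, an AP-2 factor, did not pass (0.01 ± 0.07, adjusted p = 0.893).

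Among epithelial surface and trafficking genes 19 of 29 rose with Snail, 1 fell and the median was 1.70. EPCAM, an epithelial adhesion molecule, stood at 9.91, 9.71 and 9.70 on the Snail arrays, against 5.84, 5.98 and 5.92 on the labelled Twist arrays (difference 3.86 ± 0.11, adjusted p = 1.25e-14). It was lower with Snail than with MCF10A vector (-1.65 ± 0.11, adjusted p = 5.4e-09), so the Snail arrays lay between vector and labelled Twist. FXYD3, an ion pump regulator, rose by 4.79 ± 0.13, and TSPAN1, a tetraspanin, by 3.83 ± 0.08. CDCP1, a surface substrate of Src kinases, stood at 11.41, 11.42 and 11.41, against 7.94, 8.12 and 7.68 (difference 3.50 ± 0.08, adjusted p = 7.85e-16). RAB20, a small GTPase, was the member that fell (-0.66 ± 0.09, adjusted p = 4.71e-06).

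**Figure D4:**
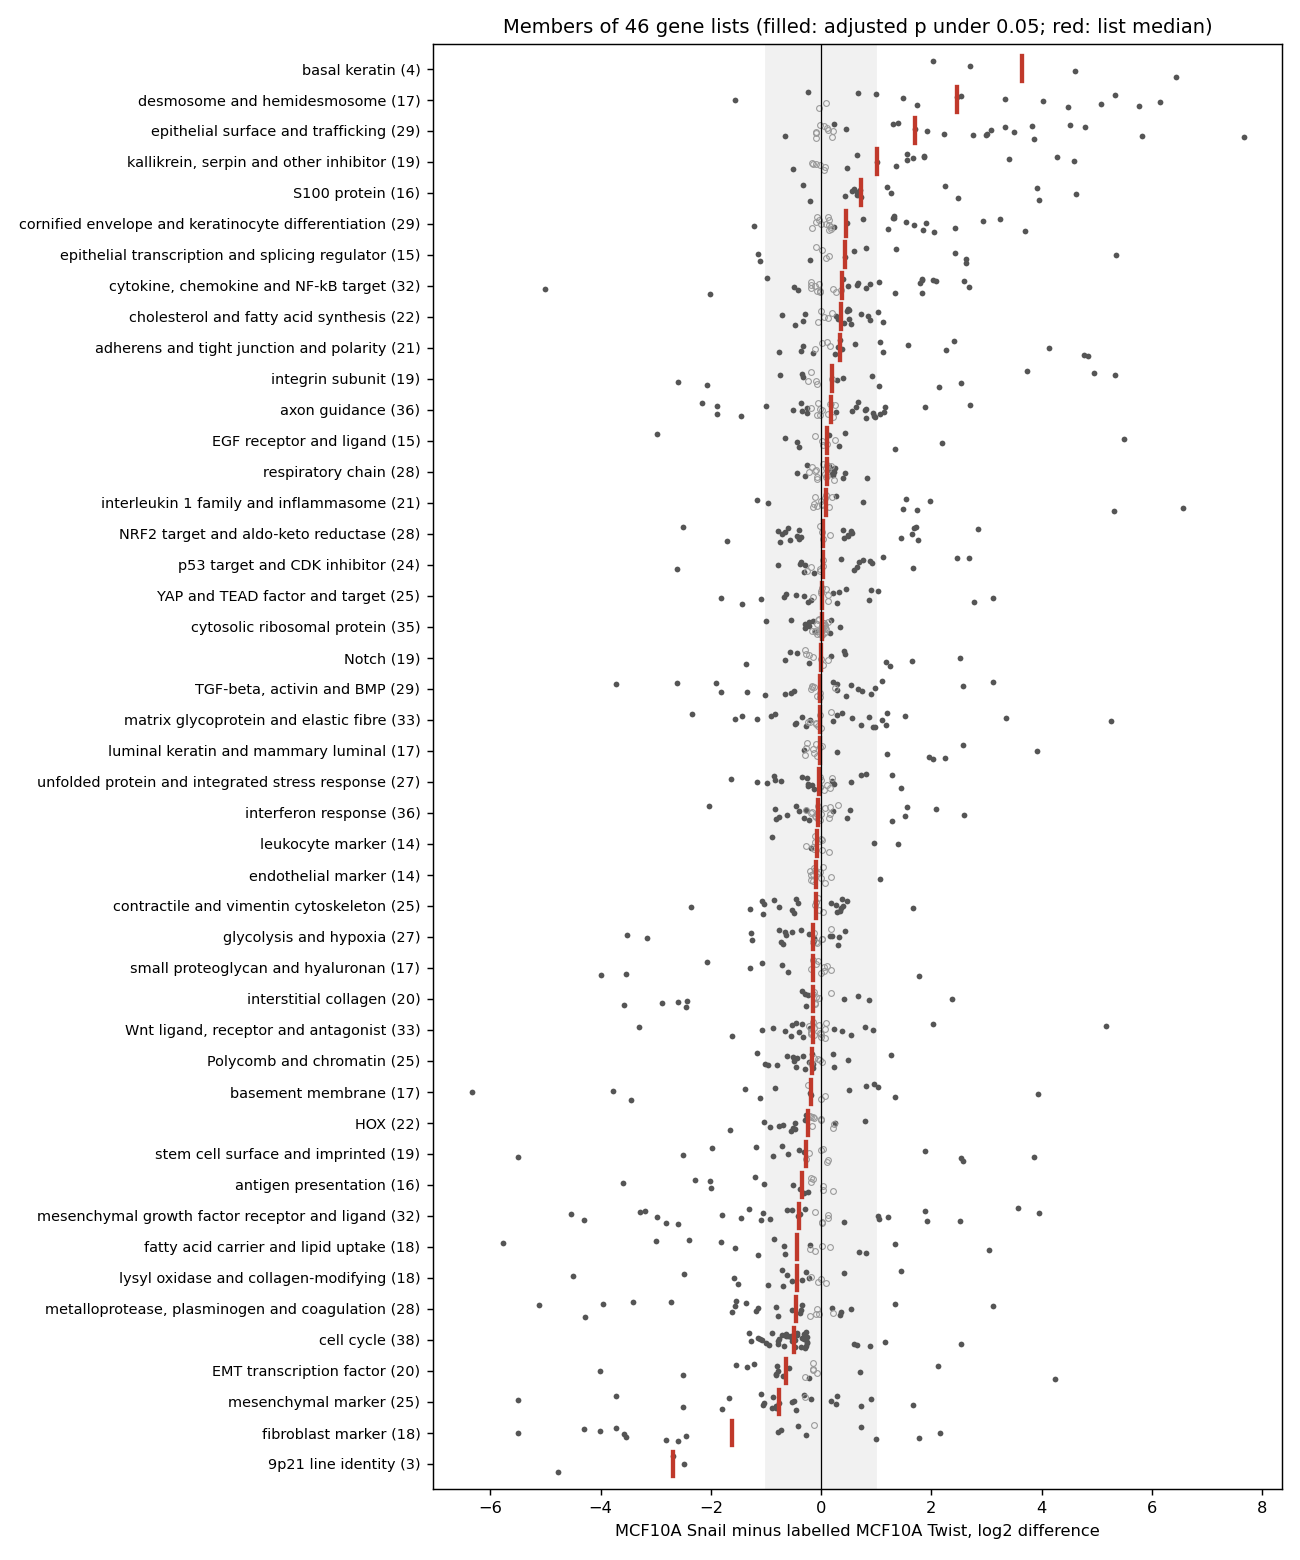
MCF10A Snail minus labelled MCF10A Twist, as log2 difference, for the measured members (number in brackets) of 46 gene lists ordered by median; filled points passed an adjusted p under 0.05, open points did not, red bars are list medians and the grey band spans 2-fold either way. Basal keratins have the highest median at 3.65, and the 3 genes of the 9p21 list the lowest at -2.69.

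Basement membrane genes divided by chain. Of 17 measured, 6 rose with Snail and 8 fell, with a median of -0.19. LAMB3, a chain of the epithelial laminin that hemidesmosomes bind, stood at 12.27, 12.16 and 12.18 on the Snail arrays, against 8.42, 8.24 and 8.14 on the labelled Twist arrays (difference 3.93 ± 0.08, adjusted p = 2.94e-16). LAMA1, a chain of embryonic laminin, stood at 7.44, 7.49 and 7.37, against 10.93, 10.87 and 10.83 (difference -3.44 ± 0.07, adjusted p = 6.02e-16). NID2, the second nidogen, stood at 6.40, 6.58 and 6.65, against 10.45, 10.32 and 10.18 (difference -3.78 ± 0.07, adjusted p = 2.15e-16). Both nidogens and LAMA1 were thus low on every Snail array, and LAMB3 high. LAMA5 rose by 1.35 ± 0.05, COL4A1 and LAMA4 differed by -1.38 ± 0.07 and -1.10 ± 0.11, and LAMB1 (0.07 ± 0.04, adjusted p = 0.175) did not pass.

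Interstitial collagens were lower with Snail in 9 of 20 and higher in 4, with a median of -0.14. COL3A1 stood at 7.71, 7.77 and 7.78 on the Snail arrays, against 11.36, 11.33 and 11.32 on the labelled Twist arrays (difference -3.58 ± 0.10, adjusted p = 1.67e-14). COL5A2, COL6A1, COL1A1 and COL6A2 differed by -2.89 ± 0.08, -2.60 ± 0.06, -2.45 ± 0.08 and -2.44 ± 0.07. COL1A2, whose product pairs with that of COL1A1 in type I collagen, differed by -0.27 ± 0.08 (adjusted p = 0.00675), with 7.57, 7.50 and 7.61 on the Snail arrays, against 7.70, 7.87 and 7.92 on the labelled Twist arrays. COL1A1 and COL1A2 thus gave differences of unlike size. COL1A2 lay close to the array medians in both groups, and differences at low signal can be understated. COL8A1 rose by 2.38 ± 0.15 and COL12A1 by 0.67 ± 0.06.

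Enzymes that process collagen were lower in 12 of 18 with Snail and higher in 2, with a median of -0.44. PCOLCE, an enhancer of procollagen cleavage, stood at 8.73, 8.65 and 8.69 on the Snail arrays, against 13.21, 13.17 and 13.20 on the labelled Twist arrays (adjusted p = 1.26e-17). ADAMTS2, a procollagen peptidase, differed by -2.48 ± 0.08, P4HA1, a prolyl hydroxylase, by -1.57 ± 0.06 and LOXL2, a crosslinking oxidase, by -1.51 ± 0.07. TGM2 (transglutaminase 2) rose by 1.44 ± 0.07.

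Matrix glycoproteins and elastic fibre genes gave 14 of 33 higher and 11 lower with Snail, with a median of -0.02. FN1 (fibronectin) did not pass the test, with 13.93, 13.92 and 13.96 on the Snail arrays, against 13.97, 13.91 and 13.95 on the labelled Twist arrays (difference -0.01 ± 0.05, adjusted p = 0.931). Both groups lay 2.01 ± 0.05 above MCF10A vector. POSTN (periostin) stood at 9.12, 9.06 and 9.02, against 5.69, 5.88 and 5.56 (difference 3.35 ± 0.09, adjusted p = 1.15e-14). SRPX, a sushi repeat protein, differed by -2.34 ± 0.06, and the proteoglycan VCAN (versican) rose by 1.52 ± 0.15. FN1 arrays overlapped, while POSTN, SRPX and VCAN arrays did not.

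Of 17 small proteoglycan and hyaluronan genes 1 rose, 7 fell and the median was -0.14. BGN (biglycan) stood at 8.90, 8.79 and 8.80 on the Snail arrays, against 12.89, 12.84 and 12.76 on the labelled Twist arrays (difference -4.00 ± 0.08, adjusted p = 1.11e-16). LUM (lumican) stood at 6.02, 5.89 and 5.99, against 9.53, 9.46 and 9.52 (difference -3.53 ± 0.08, adjusted p = 7.32e-16). DCN (decorin), of the same family, was the member that rose, with 11.06, 11.15 and 11.11, against 9.42, 9.28 and 9.30 (difference 1.77 ± 0.06, adjusted p = 3.34e-13). HAS2, a hyaluronan synthase, differed by -1.29 ± 0.09 and TNFAIP6, a hyaluronan-binding protein, by -2.07 ± 0.13.

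Mesenchymal markers were lower with Snail in 18 of 25 and higher in 6, with a median of -0.76. CDH2 (N-cadherin) stood at 11.01, 10.84 and 10.93 on the Snail arrays, against 12.78, 12.68 and 12.70 on the labelled Twist arrays (difference -1.79 ± 0.07, adjusted p = 5.49e-13). VIM (vimentin) stood at 13.37, 13.35 and 13.33, against 13.81, 13.80 and 13.81 (difference -0.45 ± 0.04, adjusted p = 1.2e-07). DPYSL3, a cytoskeletal regulator, stood at 7.73, 7.74 and 7.74, against 11.49, 11.43 and 11.48 (difference -3.73 ± 0.06, adjusted p = 1.26e-17). These 3 were lower on all Snail arrays, with no overlap. MME (neprilysin) differed by -1.68 ± 0.05. TAGLN (transgelin), S100A4 and NT5E (CD73) went the other way, rising by 1.66 ± 0.11, 0.73 ± 0.13 and 0.90 ± 0.06.

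Of 20 EMT transcription factors 12 were lower with Snail and 3 higher, with a median of -0.63. ZEB1, a zinc finger repressor of E-cadherin, stood at 9.27, 9.18 and 9.27 on the Snail arrays, against 11.80, 11.71 and 11.72 on the labelled Twist arrays (difference -2.50 ± 0.06, adjusted p = 2.11e-15). It was above MCF10A vector in both, by 1.23 ± 0.06 with Snail (adjusted p = 2.09e-10) and by 3.73 ± 0.06 on the labelled Twist arrays (adjusted p = 1.57e-17). PRRX1, a homeobox factor of mesenchyme, stood at 6.13, 6.27 and 6.68, against 10.40, 10.40 and 10.33 (difference -4.02 ± 0.12, adjusted p = 2.98e-14). TWIST2 differed by -0.83 ± 0.05, TBX3 by -1.35 ± 0.06, and the helix-loop-helix inhibitors ID2 and ID3 by -1.54 ± 0.14 and -1.21 ± 0.11. Beside SNAI1, the factors that rose were KLF8 (2.11 ± 0.10) and TCF4 (0.70 ± 0.10).

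Fibroblast markers moved with this contrast: 13 of 18 were lower with Snail, 4 were higher and the median was -1.61. Their summed level, as log2 of the summed linear values, was 12.97 to 12.99 on the Snail arrays and 14.57 to 14.63 on the labelled Twist arrays, while MCF10A vector had 12.2 to 12.27 and HMLE Twist 15.1 to 15.19. DDR2, a collagen receptor kinase, stood at 7.42, 7.48 and 7.38 on the Snail arrays, against 11.84, 11.69 and 11.64 on the labelled Twist arrays (difference -4.29 ± 0.07, adjusted p = 1.19e-17). GREM1, a BMP antagonist, differed by -3.72 ± 0.12, PDGFRB by -2.82 ± 0.09 and PDGFRA by -2.60 ± 0.11, whereas PDPN (podoplanin) rose by 2.16 ± 0.11. The list shares genes with the collagen, proteoglycan and EMT lists, and the part of other cells in the differences was not tested. Endothelial markers gave 1 of 14 higher and none lower (CDH5, the endothelial cadherin, -0.15 ± 0.12, adjusted p = 0.362), with summed levels of 10.94 to 11.07 on the Snail arrays and 10.9 to 11.14 on the labelled Twist arrays. Leukocyte markers gave 2 of 14 higher and 2 lower. PTPRC (CD45), the defining marker, was at 4.82, 4.75 and 4.71 on the Snail arrays, against 4.65, 4.69 and 4.52 on the labelled Twist arrays (0.14 ± 0.11, adjusted p = 0.342), and the summed leukocyte level was 12.18 to 12.25, against 12.5 to 12.54.

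Integrin subunits, which bind cells to matrix, went both ways. Of 19 measured, 9 rose with Snail and 5 fell, with a median of 0.20. ITGB6, a chain of an epithelial integrin that binds fibronectin, stood at 10.72, 10.68 and 10.64 on the Snail arrays, against 5.65, 5.97 and 5.57 on the labelled Twist arrays (difference 4.96 ± 0.08, adjusted p = 1.27e-17). ITGB8 rose by 3.74 ± 0.08 and the collagen receptor chain ITGA2 by 2.13 ± 0.07. ITGA7, a laminin receptor chain of muscle, stood at 6.97, 7.09 and 7.09, against 9.73, 9.63 and 9.59 (difference -2.60 ± 0.08, adjusted p = 7.88e-14), and ITGA4 differed by -2.06 ± 0.10. ITGA5, the fibronectin receptor chain, did not pass (-0.08 ± 0.05, adjusted p = 0.174).

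Cytokines split by molecule. In the interleukin 1 family and inflammasome list, 8 of 21 rose with Snail and 2 fell, with a median of 0.08. IL1A stood at 12.34, 12.42 and 12.35 on the Snail arrays, against 7.21, 6.97 and 7.02 on the labelled Twist arrays (adjusted p = 1.25e-16). IL1B rose by 1.73 ± 0.12, the receptor antagonist IL1RN by 1.49 ± 0.15 and CASP1, the protease that matures IL1B and IL18, by 1.54 ± 0.13. The receptors IL18R1 and IL1R1 fell (-1.16 ± 0.14 and -0.96 ± 0.09). IL1RL1, the receptor for IL33, rose by 1.98 ± 0.15, so receptors lay on both sides. Among cytokines, chemokines and NF-kB targets, 16 of 32 rose, 5 fell and the median was 0.37. CSF3, the granulocyte growth factor, rose by 2.68 ± 0.12, PTGS2 (cyclooxygenase 2) by 2.59 ± 0.10, and ICAM1, a leukocyte adhesion ligand, by 2.09 ± 0.06. CCL2 stood at 6.79, 7.07 and 6.75 on the Snail arrays, against 12.19, 11.79 and 11.66 on the labelled Twist arrays (adjusted p = 9.5e-15). IL6 stood at 6.84, 6.62 and 6.80, against 8.98, 8.72 and 8.61 (difference -2.02 ± 0.10, adjusted p = 1.5e-11). These 2 secreted factors were lower on every Snail array.

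Growth factor genes also differed in both directions. In the EGF list 6 of 15 rose with Snail and 4 fell, with a median of 0.11. EPGN stood at 10.56, 10.57 and 10.61 on the Snail arrays, against 5.22, 4.94 and 5.13 on the labelled Twist arrays (adjusted p = 2.36e-17). TGFA, another ligand, rose by 2.19 ± 0.18 and the receptor EGFR by 1.34 ± 0.06. LRIG1, an inhibitor of EGF receptors, stood at 7.38, 7.60 and 7.39, against 10.43, 10.41 and 10.45 (difference -2.97 ± 0.08, adjusted p = 1.35e-14). The ligands NRG1 and HBEGF fell (-0.66 ± 0.09 and -0.44 ± 0.10), as did the receptor ERBB2 (-0.40 ± 0.08), while LRIG3, a relative of LRIG1, rose by 0.44 ± 0.07. The other NRG1 probe set differed by only -0.10. Ligands and receptors thus lay on both sides. Among mesenchymal growth factor receptors and ligands 9 of 32 rose and 18 fell, with a median of -0.40. FGF5 stood at 6.53, 6.52 and 6.50, against 11.12, 11.01 and 11.05 (adjusted p = 3.16e-16), and the receptor FGFR1 differed by -2.97 ± 0.06. IGFBP2 and IGFBP4, which bind insulin-like growth factors, differed by -3.29 ± 0.11 and -3.20 ± 0.07. FGFBP1, an FGF carrier of epithelium, rose by 3.95 ± 0.16 and NRP2 (neuropilin 2) by 3.56 ± 0.08. The receptor kinase AXL differed by -1.09 ± 0.05.

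TGF-beta, activin and BMP genes gave 12 of 29 higher and 9 lower, with a median of -0.02. PMEPA1, a target and inhibitor of TGF-beta signalling, stood at 11.07, 10.79 and 10.94 on the Snail arrays, against 8.0, 7.65 and 7.81 on the labelled Twist arrays (difference 3.11 ± 0.08, adjusted p = 7.11e-15). BMPR1B, a BMP receptor, rose by 2.58 ± 0.10, and GDF15, a stress-induced ligand, differed by -2.62 ± 0.07. The ligand TGFB1 did not pass (-0.01 ± 0.06, adjusted p = 0.863). In the Wnt list 7 of 33 rose and 12 fell, with a median of -0.15. SFRP1, a secreted Wnt antagonist, stood at 12.49, 12.56 and 12.44, against 7.21, 7.37 and 7.41 (difference 5.17 ± 0.08, adjusted p = 1.19e-17). The ligand WNT5A differed by -1.62 ± 0.10, and LEF1, a nuclear effector, rose by 2.03 ± 0.10. DKK3 differed by -3.30 ± 0.06 on the probe set used, but its other probe set gave 0.12. Of 19 Notch genes 7 rose and 5 fell, with a median of -0.00. HES1, a target gene, rose by 2.52 ± 0.11, the ligands JAG2 and JAG1 by 1.64 ± 0.11 and 1.17 ± 0.07, and the receptor NOTCH1 by 1.24 ± 0.06, while the receptor NOTCH3 differed by -1.36 ± 0.06.

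The list of metalloproteases, plasminogen activation and coagulation genes, which also holds inhibitors and receptors, was lower with Snail in 17 of 28 and higher in 6, with a median of -0.45. MMP1, the interstitial collagenase, stood at 7.26, 6.77 and 6.82 on the Snail arrays, against 11.20, 11.12 and 11.37 on the labelled Twist arrays (difference -4.28 ± 0.12, adjusted p = 2.13e-14). ADAMTS1 differed by -3.96 ± 0.10, ADAMTS12 by -3.41 ± 0.08 and ADAM12 by -2.73 ± 0.08. F3 (tissue factor), which starts coagulation, stood at 10.99, 10.99 and 11.09, against 7.94, 7.95 and 7.83 (difference 3.12 ± 0.06, adjusted p = 1.89e-16), and its inhibitor's relative TFPI2 at 5.36, 5.50 and 5.89, against 10.80, 10.62 and 10.69. F3 was high and TFPI2 low on every Snail array. The protease inhibitor SERPINE2 fell as well (-1.57 ± 0.06).

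Kallikreins, clade B serpins and a few other protease inhibitors, listed together, gave 12 of 19 higher and 1 lower, with a median of 1.02. SERPINB3 stood at 10.45, 10.02 and 10.40 on the Snail arrays, against 5.36, 5.70 and 6.04 on the labelled Twist arrays (difference 4.59 ± 0.25, adjusted p = 8.21e-11); its near copy SERPINB4 can share hybridisation and rose by 1.55 ± 0.19. SERPINB13 rose by 4.28 ± 0.13 and SERPINB5 (maspin) by 3.40 ± 0.07. The kallikrein KLK6 fell (-0.51 ± 0.11, adjusted p = 0.0011), and KLK5 (0.05 ± 0.11, adjusted p = 0.726) did not pass, although both lay higher on MCF10A vector (means 7.89 and 10.00). Of 16 S100 proteins 14 rose and 2 fell, with a median of 0.72. S100A8, a calprotectin subunit, stood at 10.81, 10.76 and 10.64, against 5.94, 6.29 and 6.11 (difference 4.63 ± 0.12, adjusted p = 8.8e-15), and S100A2 rose by 3.95 ± 0.12. In the cornified envelope list 16 of 29 rose and 1 fell, with a median of 0.46. SPRR1B, an envelope precursor, rose by 3.70 ± 0.12, KRT10 by 3.25 ± 0.13 and TGM1, the crosslinking enzyme, by 2.43 ± 0.09, whereas SBSN (suprabasin) differed by -1.21 ± 0.12. FLG (filaggrin) did not pass (-0.04 ± 0.10, adjusted p = 0.77).

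Antigen presentation genes moved in a single direction among those that passed: none of 16 rose with Snail, 10 fell and the median was -0.35. ERAP2, a peptide trimming enzyme, stood at 7.22, 7.03 and 7.15 on the Snail arrays, against 10.79, 10.66 and 10.72 on the labelled Twist arrays (difference -3.59 ± 0.07, adjusted p = 2.94e-16). ERAP2, as a group mean, was at 7.26 on MCF10A vector and at 9.89, 10.47 and 10.31 in HMLE with Snail, Twist and vector. The immunoproteasome subunit PSMB9 differed by -1.99 ± 0.06 and CD274 (PD-L1) by -1.20 ± 0.12. HLA-DPB1, a class II chain, differed by -2.28 ± 0.17, and by -0.94 and -3.48 on its other probe sets. Interferon response genes gave 8 of 36 higher and 10 lower, with a median of -0.05. IFI44L rose by 2.59 ± 0.09 and SAMD9 by 2.09 ± 0.09, while EPSTI1 differed by -2.04 ± 0.11.

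Cell cycle genes were lower with Snail in 33 of 38 and higher in 5, with a median of -0.50, and 6 of the falls reached 2-fold. TK1, a thymidine kinase of S phase, stood at 11.09, 10.94 and 10.96 on the Snail arrays, against 12.32, 12.28 and 12.34 on the labelled Twist arrays (difference -1.32 ± 0.05, adjusted p = 1.71e-12). The replication licensing genes CDT1, MCM7, MCM5 and MCM2 differed by -1.28 ± 0.07, -1.15 ± 0.05, -1.11 ± 0.06 and -1.08 ± 0.08. CCND2, a D cyclin, stood at 9.98, 9.92 and 9.82, against 7.21, 7.36 and 7.54 (difference 2.54 ± 0.08, adjusted p = 4.23e-14), and CDK6 rose by 1.16 ± 0.09 and CCNE1 by 0.89 ± 0.06. These replication genes were thus lower on the Snail arrays, and CCND2, CDK6 and CCNE1 higher. The D cyclins CCND1 and CCND3 rose too. The other cyclin and kinase genes of the list fell, among them CDK2, CCNE2, CDK1, CCNB1, AURKB and CDK4. Of these, CCND1, CCND3, CCNE2, CDK1, CCNB1 and AURKB lie outside the naming rule and are named after their values were seen. Of 24 p53 targets and CDK inhibitors 11 rose and 7 fell, with a median of 0.03. SFN (14-3-3 sigma) rose by 2.69 ± 0.06 and SESN1 by 1.66 ± 0.08.

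Metabolic lists differed in direction. Cholesterol and fatty acid synthesis genes gave 13 of 22 higher and 4 lower, with a median of 0.36. FDPS, an enzyme of isoprenoid synthesis, stood at 11.58, 11.49 and 11.50 on the Snail arrays, against 10.49, 10.37 and 10.37 on the labelled Twist arrays (difference 1.11 ± 0.06, adjusted p = 4.75e-11), and FASN (fatty acid synthase) rose by 1.03 ± 0.06. INSIG1 and HMGCS1 went the other way (-0.72 ± 0.05 and -0.48 ± 0.07). Glycolysis and hypoxia genes gave 5 of 27 higher and 16 lower, with a median of -0.14. SLC2A3 (glucose transporter 3) stood at 8.25, 8.35 and 8.25, against 11.85, 11.79 and 11.77 (difference -3.52 ± 0.06, adjusted p = 2.36e-17), and ENO2, a neuronal enolase, differed by -3.16 ± 0.08. BNIP3, a hypoxia target of mitophagy, differed by -1.27 ± 0.06, and GAPDH did not pass (0.02 ± 0.04, adjusted p = 0.757). Respiratory chain genes gave 10 of 28 higher and 3 lower, none by 2-fold.

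NRF2 targets and aldo-keto reductases gave 12 of 28 higher and 12 lower, with a median of 0.03. ABCC2, a drug exporter, rose by 2.85 ± 0.07 and GCLC, an enzyme of glutathione synthesis, by 1.76 ± 0.07, while HMOX1 (heme oxygenase 1) differed by -1.72 ± 0.10. ALDH1A3, a retinaldehyde dehydrogenase, differed by -2.51 ± 0.13 on the probe set used and by -0.70 on its other. Unfolded protein and stress response genes gave 7 of 27 higher and 12 lower, with PHGDH, the first enzyme of serine synthesis, at -1.64 ± 0.05 and the chaperone DNAJC3 at 1.44 ± 0.06. Fatty acid carriers and lipid uptake genes gave 4 of 18 higher and 10 lower, with a median of -0.43. LPAR1, a receptor for the lysophosphatidate that autotaxin makes, stood at 8.38, 8.24 and 8.25 on the Snail arrays, against 11.36, 11.24 and 11.28 on the labelled Twist arrays (difference -3.00 ± 0.07, adjusted p = 1.96e-15). LPAR3 differed by -2.40 ± 0.10 and PLPP3, a phosphatase of the same lipid, by -1.81 ± 0.07. Enzyme, receptors and phosphatase were all lower with Snail. LIPG, an endothelial lipase, rose by 3.04 ± 0.14.

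Contractile and vimentin cytoskeleton genes gave 9 of 25 higher and 11 lower, with a median of -0.09. MYLK, the myosin light chain kinase, differed by -2.36 ± 0.07 and CNN3, a calponin, by -1.29 ± 0.05, while ACTB (beta-actin) did not pass (0.04 ± 0.04, adjusted p = 0.529). YAP, TEAD factors, their cofactors and targets, listed together, gave 9 of 25 higher and 9 lower, with a median of 0.02. ANKRD1, a YAP target, stood at 9.95, 9.58 and 9.87 on the Snail arrays, against 7.33, 6.95 and 6.79 on the labelled Twist arrays (difference 2.77 ± 0.12, adjusted p = 3.64e-12). CCN1, another target, stood at 10.83, 10.49 and 10.77, against 12.23, 12.06 and 12.09 (difference -1.43 ± 0.09, adjusted p = 6.51e-10). These targets thus lay on opposite sides. Axon guidance genes gave 16 of 36 higher and 10 lower: the receptor ROBO1 rose by 2.70 ± 0.08, and its ligand SLIT2 differed by -1.89 ± 0.09.

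HOX genes gave 2 of 22 higher and 11 lower, with a median of -0.24. HOXB2 stood at 8.95, 8.89 and 8.93 on the Snail arrays, against 10.60, 10.56 and 10.57 on the labelled Twist arrays (difference -1.65 ± 0.06, adjusted p = 5.62e-13), and HOXC10 differed by -1.04 ± 0.12. HOXB2, as a group mean, was at 8.85 on MCF10A vector and at 10.62, 10.82 and 10.49 in HMLE with Snail, Twist and vector. Polycomb and chromatin genes gave 4 of 25 higher and 16 lower, with SATB1, a chromatin organiser, at -1.17 ± 0.13. Stem cell surface and imprinted genes gave 4 of 19 higher and 9 lower: MEST, a paternally expressed gene, rose by 1.89 ± 0.07 and CD24, a surface sialoglycoprotein, by 2.57 ± 0.16, and IGF2BP1, an RNA-binding protein, differed by -1.99 ± 0.10. Cytosolic ribosomal protein genes gave 3 of 35 higher and 8 lower, with a median of 0.01, and 24 did not pass.

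The MCF10A vector arrays, which took no part in the contrast, lay nearer the Snail arrays at most called genes. Of the 818 genes higher with Snail, the vector mean was nearer the Snail mean in 750 (91.7%) and nearer the labelled Twist mean in 68. Of the 781 genes lower with Snail it was nearer the Snail mean in 741 (94.9%). The HMLE Twist mean was nearer the labelled Twist mean in 665 of the 818 (81.3%) and in 602 of the 781 (77.1%). HMLE Snail also lay nearer labelled Twist than MCF10A Snail in most, with 520 of 818 (63.6%) and 518 of 781 (66.3%). HMLE vector lay nearer MCF10A Snail, in 548 of 818 (67.0%) and 529 of 781 (67.7%). Against the shared vector arrays, 329 genes were called with Snail (1.79%) and 1937 on the labelled Twist arrays (10.5%).

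Genes that answered to both factors in HMLE were set beside the contrast, since the differences that chose them came from HMLE arrays alone. The spread behind their adjusted p and the choice of probe set drew on all 18 arrays. Of 465 genes called higher than vector in HMLE with Snail and with Twist, 205 (44.1%) were called lower in MCF10A Snail than on the labelled Twist arrays and 24 higher, with a median difference of -0.85. Of 599 genes called lower in both HMLE comparisons, 294 (49.1%) were higher in MCF10A Snail and 16 lower, with a median of 0.97. Over all genes tested 4.24% were called lower and 4.44% higher, with a median of -0.06. The HMLE genes that rose had a median level of 8.43 with MCF10A Snail and 9.77 on the labelled Twist arrays, beside 8.13 with MCF10A vector.

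The same subtraction in HMLE gave a smaller and different set. HMLE Snail minus HMLE Twist called 519 genes (2.82%), 332 higher (1.8%) and 187 lower (1.02%), and it shares no array with the MCF10A contrast. Called in both and in the same direction were 167 genes, 10.4% of the MCF10A list and 32.2% of the HMLE list, and 52 were called in opposite directions. Over the 1599 genes called in MCF10A the median absolute difference was 1.49 there and 0.33 in HMLE. Across all 18417 genes the differences correlated at r = 0.22, a description across genes, which are not independent. The difference between the labelled lines, tested in the same model, called 1771 genes (9.62%), 836 higher (4.54%) and 935 lower (5.08%). It held 1169 (73.1%) of the 1599.

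The genes with the widest between-line difference were IL18, TFPI2, MAL2, DSC3, EDIL3 and NID1. IL18 differed by 6.56 ± 0.10 in MCF10A and by -1.71 ± 0.10 in HMLE, a between-line difference of 8.27 ± 0.15 (adjusted p = 4.93e-16). DSC3 differed by 5.77 ± 0.13 in MCF10A and -1.74 ± 0.13 in HMLE (between lines 7.51 ± 0.18, adjusted p = 1.21e-14). TFPI2 ran the other way, with -5.12 ± 0.13 in MCF10A and 2.48 ± 0.13 in HMLE (between lines -7.60 ± 0.19, adjusted p = 1.45e-14). For these 3 genes the sign was opposite between the labelled lines. The MCF10A values rest on the labelled Twist arrays, so they carry line as well as insert. TFPI2 is itself a line-separating gene, with means of 10.7 on the labelled Twist arrays and 5.67 on MCF10A vector. Its HMLE arrays lay between 7.95 and 10.76. MAL2 differed by 0.10 ± 0.11 in HMLE (adjusted p = 0.57) and CDH1 by 0.01 ± 0.11 (adjusted p = 0.975), where both were low with either factor. DSP, KRT5 and ITGB4 kept their sign in HMLE, with 2.46 ± 0.08, 1.80 ± 0.08 and 2.23 ± 0.07. SNAI1 differed by 5.01 ± 0.09 in HMLE, and TWIST1 by -0.68 ± 0.07, beside -0.69 ± 0.07 in MCF10A (between lines -0.00 ± 0.10, adjusted p = 0.986).

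**Figure D5:**
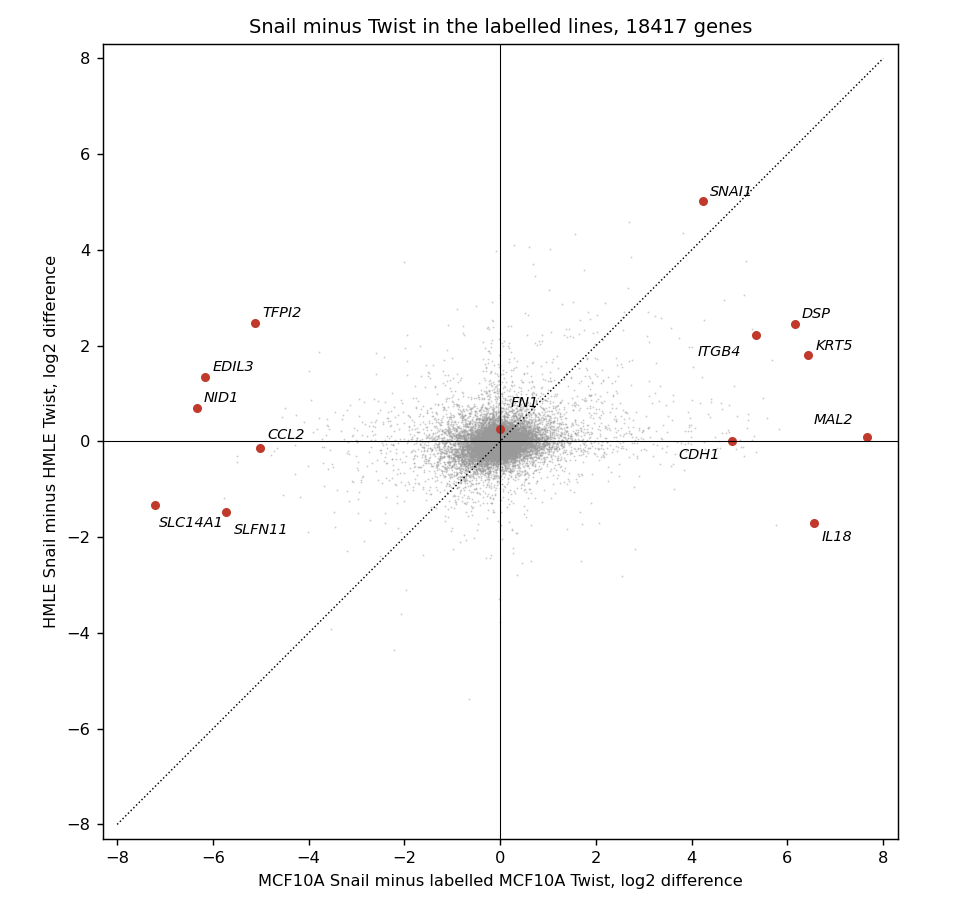
Log2 difference of Snail minus Twist for 18417 genes, in MCF10A against labelled Twist on the horizontal axis and in HMLE on the vertical axis; the dotted line marks equal differences and red points are named genes. MAL2 (7.67 and 0.10) and CDH1 (4.85 and 0.01) lie on the horizontal axis, SNAI1 (4.24 and 5.01) near the dotted line.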

How the data were processed

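Total RNA of 18 samples was measured on Affymetrix Human Gene 1.0 ST arrays. The deposited values are log2 expression values that the authors made with RMA, per the submitters' processing notes. The software version is not given in the sources used here, nor is a build. Because RMA flattens the dim end of the scale, folds of dim genes are understated. Groups came from the sample titles. Of 33297 probe sets, 19460 had 1 gene symbol in the platform annotation, and the probe set with the highest mean over the 18 arrays stood for each of 18417 genes.

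Differences were fitted with limma 3.58.1 in R 4.3.3 as 6 group means over 18 arrays, with Benjamini-Hochberg adjustment over all genes. A called gene had an adjusted p under 0.05 and at least a 2-fold difference, and list counts used adjusted p alone. On simulated data for the Snail minus labelled Twist comparison over 18417 genes, 23 of 50 genes changed by exactly 1 log2 unit and 50 of 50 changed by 1.5 were called. The count at 1 log2 unit is largely set by the 2-fold limit itself. The simulated noise was independent between arrays, so structure shared by replicate number was not covered.

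Pairing by replicate number was examined on deviations from the group means. These correlated at 0.446, 0.368 and 0.107 between same-numbered Snail and labelled Twist arrays. Of the different-numbered pairs, Snail replicate 2 and labelled Twist replicate 3 correlated at 0.24, above one same-numbered pair, and the others at -0.448 to 0.01. Between same-numbered HMLE Snail and HMLE Twist arrays the deviations correlated at 0.118, 0.248 and 0.046, and between different-numbered ones at -0.205 to 0.106. Deviations in a group cancel within each gene, so these correlations are not independent of each other. No label states a pairing, and these values do not settle it. Alternatives covered scaling, variance, probe set choice, a dim filter, the arrays fitted, the replicate block, thresholds and leaving out each array.

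Named genes were 15 core genes and the 15 largest rises and falls among called genes whose arrays did not overlap. They also included, in each of 46 lists, the largest, opposite and smallest members. The largest of the line-separating, HMLE-responsive and between-line genes completed them. The members, lists and tests were chosen with earlier results of these data known. Genes outside the rule are marked where they appear.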

Additional observations from a re-analysis of the deposited data

Results flagged for a closer look

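The Snail minus Twist difference was not the same in the lines at 1771 genes by the limma contrast of the differences, at least 2-fold and with an adjusted p under 0.05. In MCF10A the subtraction uses the labelled Twist arrays, whose line and insert cannot be told apart, so these values carry both. The difference between lines, MCF10A minus HMLE, was positive for IL18 (8.27, adjusted p = 4.93e-16), MAL2 (7.57, adjusted p = 1.59e-15), CDH1 (4.84, adjusted p = 3.16e-13), KRT5 (4.63, adjusted p = 1.64e-14) and EPCAM (3.64, adjusted p = 5.65e-12). It was negative for NID1 (-7.04, adjusted p = 3.89e-15), MTAP (-4.51, adjusted p = 3.22e-12), CDKN2B (-2.91, adjusted p = 1.03e-08), ZEB1 (-2.32, adjusted p = 1.35e-12), CDKN2A (-2.24, adjusted p = 1.06e-10) and CDH2 (-1.74, adjusted p = 1.59e-10). SNAI1 (-0.78, adjusted p = 7.61e-05), VIM (-0.46, adjusted p = 8.69e-06) and FN1 (-0.27, adjusted p = 0.00538) differed between lines by under 2-fold.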

How the results depend on the processing

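With the replicate number as a block the comparison called 1599 genes, the same 1599 as without it, also when only the 6 arrays were fitted. Every group holds the same replicate numbers, so the block alters no difference, and the 2-fold limit largely sets this list. The identity is therefore no evidence on pairing. By adjusted p alone the count was 9119 without the block, 9469 with it and 10046 with the block in the 6 arrays, and 428 genes changed their call over 18 arrays, ELF5 among those named. Without 1 array the comparison called 1560 to 1625 genes and the difference between lines 1762 to 1783. The share of calls that were higher with Snail was 51.2% and ranged between 48.9% and 54.1% over the alternatives. With no limit on size the counts grew by construction. They were 9119 (4143 higher, 4976 lower) for Snail minus labelled Twist, 7669 (3801 and 3868) between lines and 5921 (2631 and 3290) for HMLE Snail minus Twist. Against MCF10A vector they were 4173 (1963 and 2210) for Snail and 9282 (4878 and 4404) for labelled Twist. With a gap of 3 log2 units between the lines, the share of genes with all 3 labelled Twist arrays on the HMLE side was 97.1%. With a 4-fold limit in HMLE the medians of its responsive genes were -1.36 for those that rose and 2.06 for those that fell. Over the genes named here, 4018 alternative values of single genes were computed, and 4004 kept their direction and side of the threshold, 9 lost the call, 5 gained it and 0 reversed. The calls gained were those of ACTB with quantile normalization, of ITGA5 with array weights and of LAMB1 with array weights, median centring and quantile normalization. The calls lost were those of ELF5, GRHL2 and TERT, and the cause was not tested. The 3 arrays a group limit the precision, signal over background was not given with the values, and low levels are not read as absence.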

Other observations

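The genes below were chosen after their values were seen and carry no test of their own. On 7 genes the labelled Twist arrays lay at least 2 log2 units above all 15 other arrays, HMLE included, and on 7 below them. NPR3, a natriuretic peptide receptor, averaged 12.01 ± 0.06 on the labelled Twist arrays (SD, n = 3), and the other arrays lay between 5.58 and 9.13. SLC14A1 averaged 13.15 ± 0.02, with 5.62 to 7.9 on the others, and CCL2 11.88 ± 0.28, with 6.75 to 7.29. FUCA2, a fucosidase, averaged 6.65 ± 0.09, with 9.95 to 11.35 on the others. These genes set the labelled Twist arrays apart from HMLE Twist as well as from MCF10A. The Snail arrays stood apart in this way at 1 gene above, ZNF711, a zinc finger gene (9.65 ± 0.13, others 5.19 to 7.42), and at 1 below, ATP8B1, a phospholipid flippase (7.22 ± 0.05, others 9.59 to 12.11).

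Among the 12 line-separating genes with all labelled Twist arrays on the MCF10A side, CDH11, a mesenchymal cadherin, stood at 7.08, 7.23 and 6.87 on the Snail arrays, against 8.05, 7.92 and 7.88 on the labelled Twist arrays. ID1, a helix-loop-helix inhibitor, stood at 11.91, 11.65 and 11.87 on the Snail arrays, against 12.65, 12.59 and 12.58 on the labelled Twist arrays.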
